A study of Mus musculus with 8 samples.

Results

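The genes described here encode the nuclear part of the mitochondrial respiratory chain and the factors that help to assemble it, read in CD4+CD25+ T cells of pregnant mice. Members were taken by name from the platform annotation: a single gene symbol starting with Ndufa, Ndufb, Ndufc, Ndufs, Ndufv, Sdha to Sdhd, Uqcr, Cyc1, Cox with a digit, or Atp5. This found 30 of the 6986 genes tested, 10 by the names of complex I, 3 of complex II, 4 of complex III, 7 of complex IV and 6 of complex V. They are 20 subunits, 7 assembly factors, 2 isoform genes known from other tissues or conditions (Ndufa4l2 and Cox8c) and 1 pseudogene (Atp5c1-ps). Another 6 probe sets that the annotation shares between a gene with such a name and a second gene (with Ndufs1, Cox11, Uqcr10, Uqcrb, Ndufs6 or Cox6c) were left out by the rule; their log2 differences ran from -0.37 to 0.29.

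The respiratory chain sits in the inner mitochondrial membrane. Complexes I and II pass electrons from NADH and succinate to ubiquinone, complex III passes them on to cytochrome c, complex IV hands them to oxygen, and complex V uses the resulting proton gradient to make ATP. Complexes I, III, IV and V mix subunits encoded in the nucleus with subunits encoded in mitochondrial DNA and made on mitochondrial ribosomes, whereas complex II is encoded in the nucleus alone. Regulatory T cells are known to lean on this oxidative route more than conventional effector T cells do.

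Affymetrix Mouse Gene 2.0 ST arrays were used on 4 RNA pools labelled IL10-/- and 4 labelled IL10+/+, each pool from 2 to 4 mice. The lymph nodes draining the uterus (para-aortic) were taken on day 9.5 after coitus and their CD4+CD25+ cells isolated with a flow cytometer. C57BL/6 mice gave the IL10+/+ pools, and Il10 mutants back-crossed onto that strain gave the others. Per the labels' protocols, the mutants drank oxytetracycline at 2 mg/ml to prevent colitis, and no antibiotic is stated for the IL10+/+ mice. Tetracyclines block bacterial ribosomes and are also known to slow protein synthesis on mitochondrial ribosomes. Genotype and antibiotic cannot be told apart here, and of the 13 protein genes of mitochondrial DNA none was analysed here. The labels used here state no age for the mice.

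Il10 itself read 9.17 ± 0.35 in the arrays labelled IL10-/- and 8.10 ± 0.43 in the IL10+/+ arrays (log2, SD, n = 4 each). This is the opposite of a lost transcript; the mutated part of the gene is not named, so the probe set cannot check the labels, and every direction below rests on them. Foxp3, Il2ra and Cd4 were not analysed here, so the sorted cell type was checked only in part: Ctla4 (11.22 ± 0.23 and 11.32 ± 0.15) and Ikzf2 (11.35 ± 0.15 and 11.54 ± 0.15) were read in both groups (log2, IL10-/- then IL10+/+, SD, n = 4 each). One array of each group, IL10-/- replicate 2 and IL10+/+ replicate 4, had a narrower spread of values, with interquartile ranges of 2.15 and 2.17 against 2.32 to 2.58 in the other 6. In pooled RNA, fewer cells of a type and less RNA per cell cannot be told apart.

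No respiratory chain gene passed the test between the groups, by limma over all genes. At an adjusted p under 0.05, 0 of the 30 members passed, where 0.0286% of all genes did (2 genes, neither of them a member). At an unadjusted p under 0.05 there were 2 members (4.78% of all genes), the complex IV assembly factor Cox16, higher in the arrays labelled IL10-/-, and the complex V pseudogene Atp5c1-ps, lower there (3.19% and 1.59% of all genes). Their adjusted p-values were 0.926 and 0.953, and those of the other 28 members were 0.999. In 0 of the 30 did the groups separate without overlap (2.92% of all genes, 1.83% higher and 1.09% lower).

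The differences were small throughout. Their median over the members was 0.09 on the log2 scale, or 1.06-fold, with a range from -0.35 to 0.40, against a median of 0.0025 over all 6986 genes. A difference of at least 0.58 either way was found for 0 members and 1.07% of all genes. A positive difference, higher in the arrays labelled IL10-/-, was found for 23 of 30 members and for 50.8% of all genes. All 30 members were read on the same 8 arrays and are not independent, so this count has no test. The median rose to 0.14 without IL10-/- replicate 2. With 1 array left out, the difference of each of the 30 members moved by over 1.5 times for at least 1 array. The 95% intervals of 25 members lay within 0.58 either way, a 1.49-fold change, as did those of 85.4% of all genes. The intervals of Ndufb9, Ndufb3, Sdhaf4, Cox16 and Atp5c1-ps reached past it, so for these 5 a change of that size lies within the error of 4 pools a group.

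**Figure D1:**
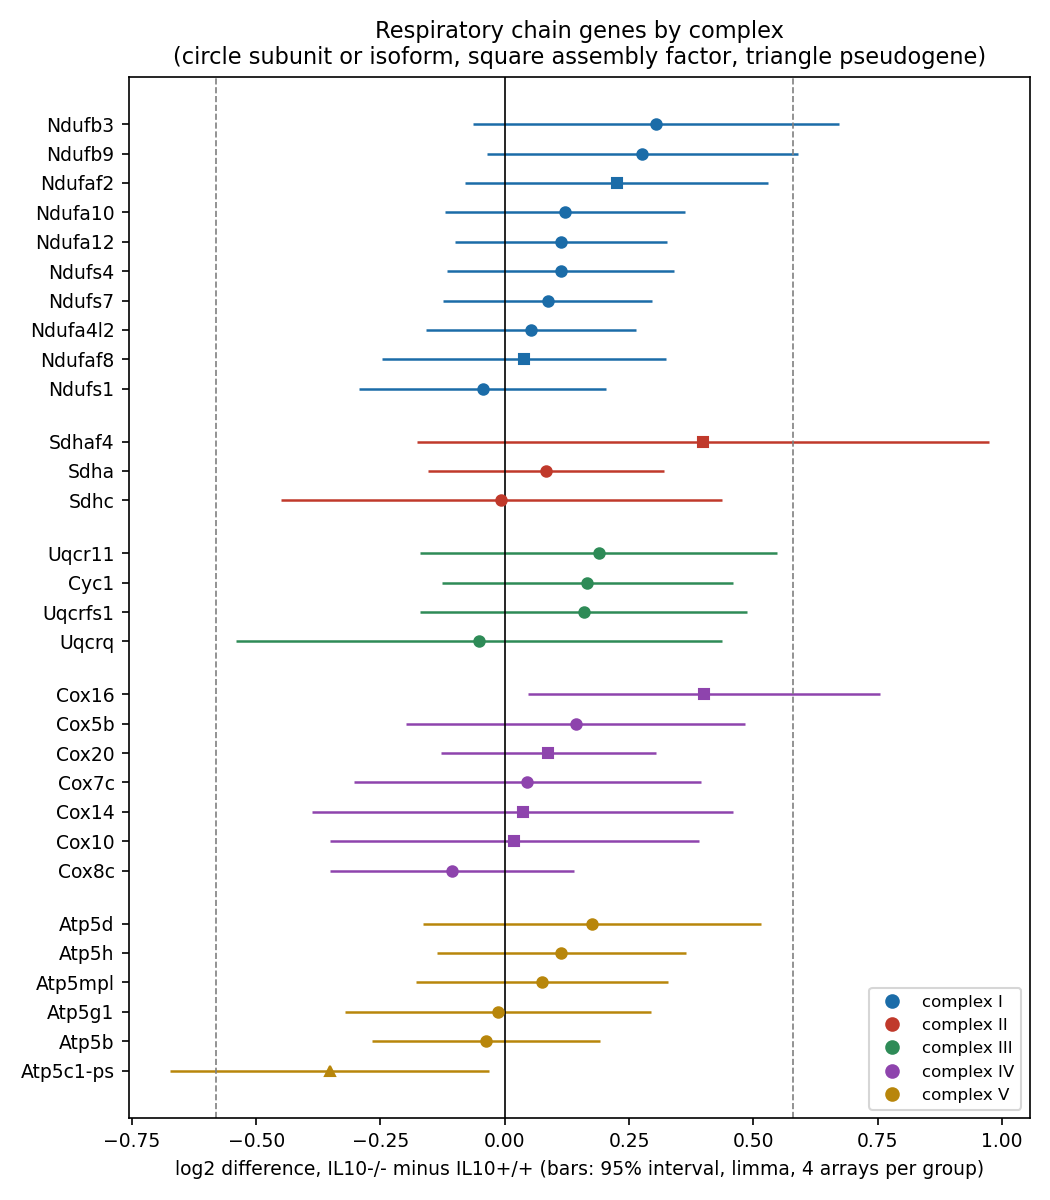
Log2 difference (IL10-/- minus IL10+/+ as labelled) of each of the 30 genes, grouped by complex; bars are 95% intervals from limma with 4 arrays per group, and dashed lines mark 0.58 either way. Most points lie just right of 0, and the intervals of Cox16 and Atp5c1-ps alone leave out 0.

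Complex I, the NADH dehydrogenase and the entry point for most electrons, had 9 of 10 members with a positive difference and a median of 0.11, which was 0.07 without IL10+/+ replicate 1. The smallest p was that of Ndufb9, an accessory subunit of the membrane arm. Ndufb9 read 11.32, 11.61, 11.44 and 11.35 in IL10-/- replicates 1 to 4 and 11.27, 10.87, 10.998 and 11.48 in IL10+/+ replicates 1 to 4 (log2). All arrays labelled IL10-/- lay above 3 of the IL10+/+ arrays, but IL10+/+ replicate 4 lay among them. The difference was 0.28 (SE 0.14; limma, p = 0.077; exact permutation p = 0.143), and 0.18 without IL10+/+ replicate 2.

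Ndufb3, another membrane arm subunit, differed by 0.30 (SE 0.17), and by 0.16 without IL10+/+ replicate 2, which read 9.30 against 9.73 to 10.15 in the other IL10+/+ arrays. Ndufaf2, an assembly factor of complex I, differed by 0.23 (SE 0.14), and by 0.14 without IL10-/- replicate 2. The accessory subunits Ndufa10, Ndufa12 and Ndufs4 were close to each other, at 0.12, 0.11 and 0.11. Ndufa10 was at 0.053 without IL10-/- replicate 2 and 0.070 without IL10+/+ replicate 2, while Ndufa12 and Ndufs4 were at 0.068 and 0.075 without IL10+/+ replicate 1. The core subunits, which carry the iron-sulfur clusters, had smaller differences of opposite sign, 0.09 for Ndufs7 and -0.04 for Ndufs1. A probe set shared by Ndufs1 and Ino80dos, left out by the rule, differed by -0.37. It read 8.08 in IL10-/- and 8.45 in IL10+/+ arrays on average. Ndufa4l2, a paralogue of Ndufa4 known for induction by hypoxia, is counted in complex I by its name only and differed by 0.05. The 7 genes classed as complex I subunits had 6 positive differences and a median of 0.11.

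Ndufaf8, an assembly factor, had the difference nearest to 0 in complex I. It read 9.01, 8.53, 9.10 and 8.81 in IL10-/- replicates 1 to 4 and 8.74, 8.78, 8.88 and 8.88 in IL10+/+ replicates 1 to 4 (log2). The IL10-/- arrays lay on both sides of all IL10+/+ arrays, and the difference was 0.04 (SE 0.13; limma, p = 0.765; exact permutation p = 0.83).

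Complex II, succinate dehydrogenase, links the chain to the citric acid cycle. Its flavoprotein Sdha differed by 0.08 (SE 0.11), from a mean of 10.95 in IL10+/+ to 11.03 in IL10-/- arrays. Its membrane anchor Sdhc read 8.22, 7.55, 8.34 and 8.24 in IL10-/- replicates 1 to 4 and 8.16, 8.28, 8.32 and 7.62 in IL10+/+ replicates 1 to 4 (log2). The lowest reading in each group came from the array of narrow spread, and the other 6 arrays lay close together. The difference was -0.0067 (SE 0.20; limma, p = 0.974; exact permutation p = 0.943).

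The assembly factor Sdhaf4, which guards the flavinated Sdha until it joins the complex, had the widest spread of all members. It read 9.06, 8.57, 8.94 and 8.58 in IL10-/- replicates 1 to 4 and 7.76, 9.18, 8.51 and 8.11 in IL10+/+ replicates 1 to 4 (log2). Both the highest and the lowest array were labelled IL10+/+. The difference of 0.40 (SE 0.26; limma, p = 0.155; exact permutation p = 0.314) became 0.66 without IL10+/+ replicate 2 and 0.19 without IL10+/+ replicate 1. With 3 members, the median of complex II was 0.08, and it moved to 0.17 without IL10-/- replicate 2, to 0.04 without IL10-/- replicate 1, to 0.13 without IL10+/+ replicate 2 and to 0.03 without IL10+/+ replicate 4. It was 0.038 over the 2 subunits alone and 0.050 after quantile normalization.

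Complex III, the cytochrome bc1 complex, had the highest median of the 5 complexes, 0.16 over 4 members, which fell to 0.04 without IL10+/+ replicate 4. Cyc1, cytochrome c1, read 10.31, 10.42, 10.30 and 10.26 in IL10-/- replicates 1 to 4 and 10.35, 9.93, 9.92 and 10.42 in IL10+/+ replicates 1 to 4 (log2). IL10+/+ replicates 2 and 3 lay below all IL10-/- arrays, replicate 4 lay just above them all and replicate 1 among them. The difference was 0.17 (SE 0.13; limma, p = 0.236; exact permutation p = 0.400). It was 0.092 without IL10+/+ replicate 2, 0.089 without IL10+/+ replicate 3 and 0.25 without IL10+/+ replicate 4.

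Uqcr11, a small accessory subunit, differed by 0.19 (SE 0.16), and Uqcrfs1, the Rieske iron-sulfur protein that takes electrons from ubiquinol, by 0.16 (SE 0.15). Uqcrfs1 differed by 0.02 without IL10+/+ replicate 4, and Uqcr11 by 0.06. Uqcrq, another small subunit, read 9.94, 9.15, 10.16 and 10.15 in IL10-/- replicates 1 to 4 and 9.64, 10.09, 10.17 and 9.70 in IL10+/+ replicates 1 to 4 (log2). IL10-/- replicate 2 was the lowest array, and the others overlapped. The difference was -0.05 (SE 0.22; limma, p = 0.819; exact permutation p = 0.857), and 0.18 without that array.

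**Figure D2:**
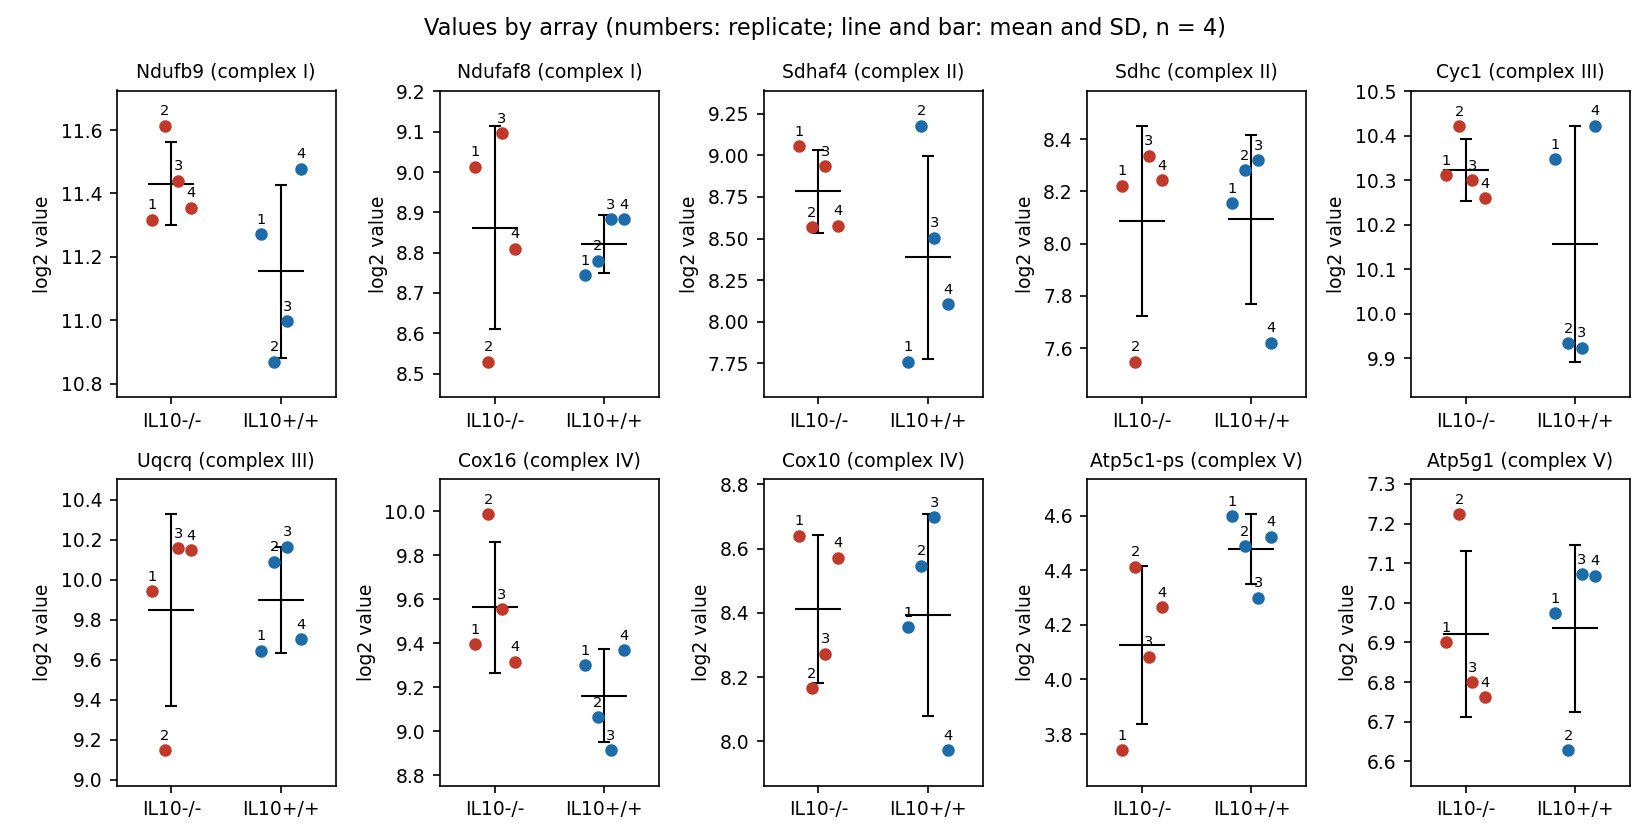
Log2 values of the 10 genes described array by array, 2 for each complex; points are arrays numbered by replicate, and the line and bar are the mean and SD of 4 arrays. The groups overlap in every panel, with Cox16 and Atp5c1-ps closest to separation.

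Complex IV, cytochrome c oxidase, held the largest difference among the members. Cox16, which helps to build the complex around its mitochondrially encoded copper subunit, read 9.40, 9.99, 9.55 and 9.32 in IL10-/- replicates 1 to 4 and 9.30, 9.06, 8.91 and 9.37 in IL10+/+ replicates 1 to 4 (log2). In the arrays labelled IL10-/-, 3 lay above all IL10+/+ arrays, and replicate 4 lay below IL10+/+ replicate 4. The difference was 0.40, or 1.32-fold (SE 0.16, 95% interval 0.05 to 0.76; limma, p = 0.030; exact permutation p = 0.0571). It was 0.26 without IL10-/- replicate 2, the highest array. With 1 array left out, its unadjusted p was above 0.05 without that array, and also without IL10-/- replicate 3, IL10+/+ replicate 2 or IL10+/+ replicate 3, where the differences were 0.40, 0.37 and 0.32.

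The other assembly factors of complex IV differed less. Cox20 differed by 0.09 (SE 0.10) and Cox14 by 0.04 (SE 0.19). Cox10, which makes the heme precursor of cytochrome c oxidase, had the difference nearest to 0. It read 8.64, 8.17, 8.27 and 8.57 in IL10-/- replicates 1 to 4 and 8.36, 8.55, 8.70 and 7.97 in IL10+/+ replicates 1 to 4 (log2). The highest and the lowest array were both labelled IL10+/+, and the difference was 0.02 (SE 0.17; limma, p = 0.910; exact permutation p = 0.943).

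Among the subunits of complex IV, Cox5b differed by 0.14 (SE 0.15) and Cox7c by 0.05 (SE 0.16). Leaving out IL10-/- replicate 2, 3 or 4 gave Cox5b a difference of 0.29, 0.057 or 0.074. The brighter probe set of Cox5b, a gene of chromosome 1, has an identifier among those of chromosome 13, where all 6 of its nearest named probe sets lie, so which copy it reads is uncertain; the other probe set gave 0.09 (SE 0.11). Cox8c, the testis isoform, differed by -0.11 (SE 0.11), from a mean of 5.32 in IL10+/+ to 5.21 in IL10-/- arrays. It is one of 3 members, with Ndufa4l2 and Atp5c1-ps, whose mean lay below the median of all probe sets. The complex IV median of 0.05 reversed to -0.05 without IL10+/+ replicate 4 and to -0.02 without both arrays of narrow spread. It was also above 1.5 times its value without IL10-/- replicate 2 (0.10), IL10-/- replicate 4 (0.07), IL10+/+ replicate 2 (0.09) or IL10+/+ replicate 3 (0.12).

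Complex V, the ATP synthase, had 3 members with a positive and 3 with a negative difference, and a median of 0.03. Its 5 subunits without the pseudogene had 3 positive and 2 negative differences and a median of 0.075. The catalytic beta subunit gene Atp5b was the most even: the 4 arrays labelled IL10+/+ read 12.18, 12.17, 12.17 and 12.17, and those labelled IL10-/- read 12.25, 11.90, 12.17 and 12.23 (log2, replicates 1 to 4). IL10-/- replicate 2 was low and the rest lay within a narrow band; the difference was -0.04 (SE 0.10). The delta subunit gene Atp5d of the central stalk differed by 0.18 (SE 0.15), and 0.20 (SE 0.13) by its other probe set. Leaving out IL10-/- replicate 2 or 4 gave 0.32 or 0.098, and leaving out IL10+/+ replicate 2 gave 0.10. Atp5mpl, a small membrane subunit, differed by 0.08 (SE 0.11), and by 0.0097 without IL10+/+ replicate 1 and 0.14 without IL10-/- replicate 2.

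Atp5h, the d subunit of the peripheral stalk, differed by 0.11 (SE 0.11) by the brighter probe set and by -0.0032 (SE 0.11) by the other. The brighter probe set lies by its identifier among genes of chromosome 15, while Atp5h is on chromosome 11, so its source is uncertain as well. Atp5g1, which encodes the c subunit of the rotor ring, had the difference nearest to 0. It read 6.90, 7.22, 6.80 and 6.76 in IL10-/- replicates 1 to 4 and 6.97, 6.63, 7.07 and 7.07 in IL10+/+ replicates 1 to 4 (log2). The ranges overlapped from 6.76 to 7.07, with 1 IL10-/- array above and 1 IL10+/+ array below; the difference was -0.01 (SE 0.14; limma, p = 0.921; exact permutation p = 0.914).

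Atp5c1-ps, a pseudogene of the gamma subunit gene, was the member with the largest negative difference. It read 3.74, 4.41, 4.08 and 4.26 in IL10-/- replicates 1 to 4 and 4.60, 4.49, 4.30 and 4.52 in IL10+/+ replicates 1 to 4 (log2). Of the arrays labelled IL10-/-, 3 lay below all IL10+/+ arrays. The difference was -0.35 (SE 0.15, 95% interval -0.67 to -0.03; limma, p = 0.034; exact permutation p = 0.0571), and -0.22 without IL10-/- replicate 1. With 1 array left out, its unadjusted p stayed under 0.05 only without IL10-/- replicate 2 or 4 or IL10+/+ replicate 3. The signal was dim, and no detection call was used. The complex V median moved to 0.09 without IL10-/- replicate 2, to 0.06 without IL10-/- replicate 4 or without IL10+/+ replicate 3 or 4, and to 0.0042 without IL10+/+ replicate 1. With the second probe sets it was -0.0087, with array weights 0.058, after quantile normalization 0.017, after median centring 0.013 and with the dim filter 0.075. It was 0.02 without IL10-/- replicate 1 and 0.10 without both arrays of narrow spread.

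Within the groups, single arrays differed in how many members they held high. In IL10-/- replicates 1, 3 and 4, 24, 25 and 20 of the 30 members lay above their own 8-array mean, against 46.1%, 43.5% and 57.6% of all genes, and replicate 3 held the highest value of 9 members and the lowest of 0. In IL10-/- replicate 2, 12 lay above their mean (59.1% of all genes), and 6 members had their highest value of the 8 arrays and 7 their lowest. In IL10+/+ replicates 1 to 4, 11, 14, 20 and 12 lay above their mean, against 43.4%, 43.1%, 55.5% and 58.4% of all genes. The groups thus overlapped in the count of members. Both arrays of narrow spread lay below the other 6 arrays for 7 members, Sdha, Sdhc, Uqcr11, Cox5b, Cox7c, Cox10 and Ndufs1. They lay above the other 6 for 4 members, Ndufb9, Ndufaf2, Ndufa10 and Cyc1. These counts are 23.3% and 13.3% of the members, against 9.42% and 14.1% of all genes. As 1 such array was labelled IL10-/- and the other IL10+/+, this split did not follow the genotype labels.

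**Figure D3:**
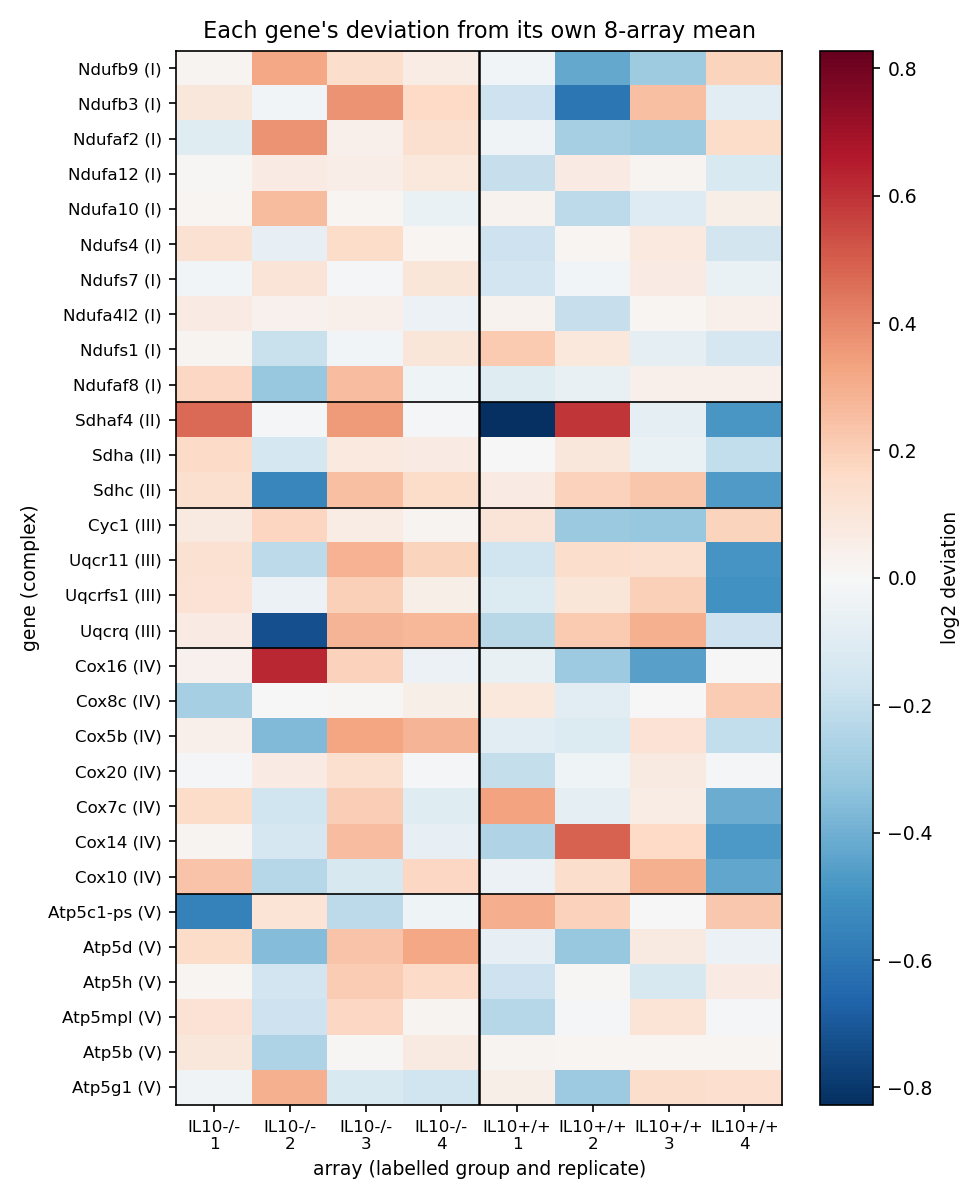
Deviation of each gene from its own mean over the 8 arrays (log2, colour scale), genes in rows by complex and arrays in columns by labelled group and replicate. The deepest colour is the blue of Sdhaf4 in IL10+/+ replicate 1. In both IL10-/- replicate 2 and IL10+/+ replicate 4, Sdhc is blue and Ndufb9 a paler red.

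Averaged by complex, the arrays ordered differently. The mean deviation of the 10 complex I genes from their 8-array means was 0.04, 0.06, 0.10 and 0.05 in IL10-/- replicates 1 to 4 and -0.06, -0.16, -0.03 and -0.01 in IL10+/+ replicates 1 to 4 (log2). Each IL10-/- array lay above each IL10+/+ array, by 0.13 between the group means, a description that was not tested. Of the 10 genes, 0 separated the groups alone. The deviations were not centred by array, and array medians ran from 6.97 in IL10+/+ replicate 1 to 7.12 in IL10-/- replicate 2. These 2 arrays lay further apart in their medians than in their complex I deviations (-0.06 and 0.06). Subtracting the medians would therefore put IL10-/- replicate 2 below IL10+/+ replicate 1, and the separation would not hold. How often other gene sets separate was not tested. For complexes II to V the groups overlapped. In IL10-/- replicate 2 the mean deviations were -0.24 for complex II and -0.20 for complex III, against 0.06 for complex I. In IL10+/+ replicate 4 they were -0.38, -0.25 and -0.01, with 0.06 for complex V.

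**Figure D4:**
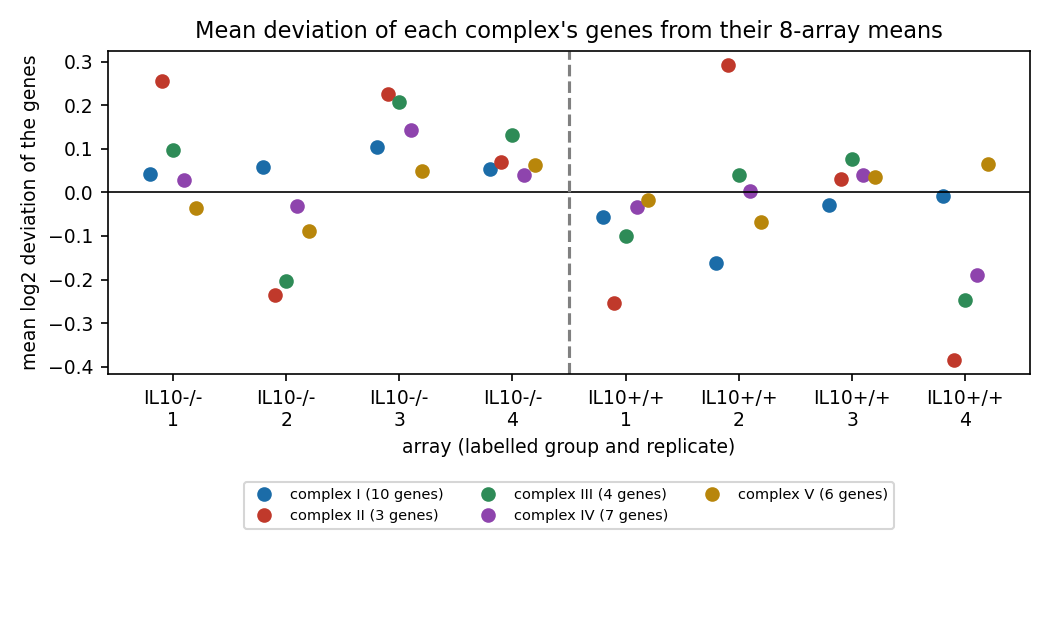
Mean log2 deviation of the genes of each complex from their 8-array means, by array. Complex I lies between 0.04 and 0.10 in the arrays labelled IL10-/- and between -0.16 and -0.01 in those labelled IL10+/+, while complexes II and III are lowest in IL10+/+ replicate 4. The values are not centred by array, and no difference was tested. With the array medians subtracted, the groups would overlap for complex I.

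The promoters of these genes are known for sites of NRF1, of ETS factors such as GABP, and of YY1. RefSeq promoter windows (GRCm38.p6, 250 bases before to 50 after the start) were found for 21 of the 30 members and searched on both strands for GCGCATG (an NRF1 half-site), CCGGAAG (ETS) and ATGGCGG (YY1), motifs that do not contain one another. NRF1 letters were found in 2 of 21 members (9.52%) and in 5.43% of the tested genes with a window, ETS letters in 7 (33.3%) and 12.7%, and YY1 letters in 6 (28.6%) and 6.26%. A match is a description of letters and not a site in use. The 100 bases before the start follow for Cox16, the member with the smallest p (the first of its windows), for Uqcr11 and Cox5b, which hold NRF1 letters, and for Cox10 and Atp5h, as members with ETS letters and differences near 0 or of uncertain source. Capitals mark the motif letters that lie wholly inside the printed stretch.
Cox16 (chr12:81484852-81484951, minus strand): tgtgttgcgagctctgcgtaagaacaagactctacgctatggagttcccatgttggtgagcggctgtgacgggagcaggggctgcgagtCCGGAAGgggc
Uqcr11 (chr10:80406822-80406921, minus strand): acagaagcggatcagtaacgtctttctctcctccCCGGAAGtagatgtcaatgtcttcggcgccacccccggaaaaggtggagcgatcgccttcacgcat
Cox5b (chr1:36691387-36691486, plus strand): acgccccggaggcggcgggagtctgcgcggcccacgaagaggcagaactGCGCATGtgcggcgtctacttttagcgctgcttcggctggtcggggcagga
Cox10 (chr11:64079473-64079572, minus strand): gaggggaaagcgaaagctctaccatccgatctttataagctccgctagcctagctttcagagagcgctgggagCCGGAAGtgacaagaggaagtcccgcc
Atp5h (chr11:115419920-115420019, minus strand): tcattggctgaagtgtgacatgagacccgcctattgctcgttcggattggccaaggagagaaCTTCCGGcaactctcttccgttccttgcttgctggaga

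The ETS letters begin 11 bases before the start in Cox16, 27 in Cox10, 38 in Atp5h and 66 in Uqcr11. Among these printed stretches, only in Atp5h do they lie on the opposite strand to the gene. Window 2 of Cox16, not printed, also holds ETS letters, which begin 15 bases before its start on the opposite strand. The NRF1 letters of Cox5b begin 51 bases before the start, and those of Uqcr11 span the start. Members with ETS letters had differences from 0.40 (Cox16) to 0.02 (Cox10), and Ndufb3 (0.30) held none of the 3 motifs in its window.

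Other genes of the pathway did not pass the test either. Of 11 measured assembly factors outside the name rule, 0 passed, 6 had a positive difference and the median was 0.04. Among them Lyrm7, an assembly factor of complex III, differed by 0.76 (SE 0.25, limma, adjusted p = 0.777). Its signal was dim, at 6.01 ± 0.35 in IL10-/- against 5.25 ± 0.51 in IL10+/+ arrays. Bcs1l, another assembly factor of complex III, differed by -0.12. Nubpl, which supplies iron-sulfur clusters to complex I, differed by 0.21, Taco1 of complex IV by -0.17, and Atpaf2 and Tmem70 of complex V by -0.05 and 0.05.

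Genes of ubiquinone synthesis and use leaned the other way, with 4 of 5 negative, a median of -0.06 and 0 past the test. Coq10a and Coq10b, which bind ubiquinone, differed by -0.30 (SE 0.17) and -0.19 (SE 0.13). Of 8 genes of the citric acid cycle and its entry, 5 were positive, with a median of 0.02, and 0 passed; Dld differed by 0.19 and Sucla2 by 0.17. Of 7 regulators of mitochondrial genes, 2 were positive, with a median of -0.08, and 0 passed. Tfb2m, a mitochondrial transcription factor, differed by 0.23 and the mitochondrial RNA polymerase gene Polrmt by -0.12.

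Genes of the mitochondrial ribosome, which makes the subunits encoded in mitochondrial DNA, had a positive difference in 20 of 25 and a median of 0.12. None passed over all genes, and 3 had an unadjusted p under 0.05, all higher (3.19% of all genes). Of the 25, 1 gene (1.83% of all genes) was higher in every array labelled IL10-/- than in any labelled IL10+/+, Mrps23. It read 8.91 ± 0.24 against 8.34 ± 0.22 (log2, SD, n = 4 each), a difference of 0.57 (limma, adjusted p = 0.624). Mrpl13 differed by 0.34. Cytosolic ribosomal protein genes had 23 of 30 positive and a median of 0.05, with 0 past the test. Of these, 4 had an unadjusted p under 0.05 and 2 did not overlap between the groups, all higher (3.19% and 1.83% of all genes). Rps15, without overlap, differed by 0.36 and Rps7 by 0.54, at mean readings of 7.35 and 8.59 in IL10-/- arrays. Rpl41, the brightest of the list at 13.07, differed by 0.04.

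Cell division genes and markers of other cells were read beside these results, and their part in them was not tested. Of 11 cell division genes, 9 were positive with a median of 0.43, Top2a and Pbk each at 0.61, and 0 passed over all genes. Their mean deviation by array was 0.01, -0.08, 0.22 and 0.49 in IL10-/- replicates 1 to 4 and -0.35, 0.36, -0.20 and -0.45 in IL10+/+ replicates 1 to 4 (log2). Of 14 B cell markers 6 were measured, all with a positive difference (Cd79b 0.27, Vpreb3 0.24), at a mean log2 level of 6.93 to 7.31 in IL10-/- and 6.81 to 7.00 in IL10+/+ arrays, highest in IL10-/- replicate 2. The 6 of 18 myeloid markers measured, 3 positive and 3 negative, ranged from 7.09 to 7.66 and from 7.35 to 7.38 (Batf3 at 0.28, Lyz1 at -0.42), again highest in IL10-/- replicate 2. The 5 of 13 stroma and fat markers measured included no fat marker, and all had a negative difference (Col3a1 at -0.09, Dcn at -0.10). Their mean level ranged from 6.57 to 6.77 and from 6.67 to 6.83. The 3 of 12 red cell, platelet, NK and CD8 markers measured were Itga2 (0.23), Itga2b (0.05) and Slc4a1 (0.10), with no CD8 gene among them. Their mean level ranged from 7.17 to 7.43 and from 7.01 to 7.32. T cell markers, 4 of 15, ranged from 10.49 to 10.76 and from 10.61 to 10.72, with 1 positive and 3 negative (Themis at 0.21, Ptprc at -0.09). Treg markers, 5 of 13, ranged from 9.72 to 10.11 and from 9.75 to 10.11, with 2 positive and 3 negative (Socs2 at 0.56, Ikzf2 at -0.19).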

How the data were processed

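The deposited values are log2 expression values of 16378 probe sets in 8 arrays. Partek was used by the authors to correct them for background (RMA) and GC content and to average the probes, as the design text of the series states. Affymetrix Expression Console is also listed in the submitters' processing notes; software versions and the probe sets' genome build were not given in the sources used here. RNA was amplified before labelling. The annotation named 7358 probe sets with 1 gene, 456 with several and 8564 with none; 7310 of the first matched RefSeq GRCm38.p6 by Entrez identifier. The brightest probe set by its mean over the 8 arrays stood for each gene, giving 6986 genes. The members lie on chromosomes 1, 10, 11, 12, 13 and 15, so the chain was measured in part. No filter on signal was used.

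Groups were compared with limma 3.58.1 in R 4.3.3 (lmFit, eBayes, no block), with Benjamini-Hochberg adjustment over all 6986 genes at 0.05; the script was tested on simulated data. Exact two-sided permutation tests over 70 assignments, smallest p 0.0286, were run for 10 members. The number of arrays limits precision. Every member is named with its difference; array values are given for the member of smallest p and the one nearest 0 in each complex, and for members whose groups do not overlap (0 were found). Up to 2 genes of smallest p are named from each other list; further array values (Atp5b, parts of Ndufb3) and the printed promoters were chosen after values were seen. Members and lists were chosen with earlier results of these data known. Replicate numbers are not said to pair the arrays. Deviations of same-numbered arrays had r from -0.32 to 0.05. This cannot decide whether pools were paired, as the narrow arrays, IL10-/- replicate 2 and IL10+/+ replicate 4 (r = 0.46), carry different numbers. Alternatives were quantile normalization, median centring, the replicate block, array weights, trend and robust eBayes, a dim filter, averaged or second probe sets (the last chosen after seeing the data), leaving out arrays, and leaving out assembly factors and the pseudogene.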

Additional observations from a re-analysis of the deposited data

Results flagged for a closer look

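In 60 groups of 4 arrays (30 genes in each labelled group), 3 held an array far from the other 3, which is the number that chance gives at 1 in 20. Sdhc read 7.55 in IL10-/- replicate 2, against 8.22 to 8.34 in the other arrays with that label. Cox8c, the testis isoform, read 4.99 in IL10-/- replicate 1, against 5.27 to 5.32. Ndufa4l2 read 6.12 in IL10+/+ replicate 2, against 6.33 to 6.36.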

How the results depend on the processing

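Under all alternatives run, 0 of the 30 members passed limma's adjusted test, with the lowest adjusted p of any member at 0.466 (without IL10+/+ replicate 2). With the replicate block, 0 members passed and the median stayed at 0.09; at an unadjusted p under 0.05 the block dropped Cox16 and added Ndufb3, and 1 of all genes passed the adjusted test in place of 2. The median over members lay between 0.06 and 0.14 with 1 array left out, and at 0.07 after quantile normalization or centring; positive members numbered 21 to 27 and members at an unadjusted p under 0.05 numbered 0 to 3. The latter count was 4 without both arrays of narrow spread and 1 with the dim filter, which removes Atp5c1-ps. Without assembly factors and the pseudogene the median was 0.099. Complex medians with 1 array left out ran from 0.07 to 0.13 (I), 0.03 to 0.17 (II), 0.04 to 0.19 (III), -0.05 to 0.12 (IV) and 0.0042 to 0.09 (V). Of the 30 members, 19 kept their direction under every alternative and 11, all within 0.12 of 0, did not; the cause was not tested. Without both arrays of narrow spread, Atp5b turned to 0.041, Cox10 to -0.039, Cox14 to -0.064, Cox7c to -0.021, Sdhc to 0.015 and Uqcrq to 0.12. Array weights turned Atp5b to 0.018, Sdhc to 0.043 and Uqcrq to 0.047, quantile normalization turned Sdhc to 0.014, and the second probe set gave Atp5h -0.0032. With 1 array left out the ranges were -0.075 to 0.041 for Atp5b, -0.12 to 0.039 for Atp5g1, -0.12 to 0.12 for Cox10, -0.12 to 0.20 for Cox14, -0.083 to 0.16 for Cox7c, -0.0034 to 0.076 for Ndufa4l2, -0.039 to 0.15 for Ndufaf8, -0.10 to 0.019 for Ndufs1, -0.16 to 0.17 for Sdhc and -0.16 to 0.18 for Uqcrq.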
